A study of Mus musculus with 9 samples.

Results

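The genes described here are the 187 expressed solute carrier genes of murine leukaemia cells that carry the MLL-AF9 fusion. The count tables hold 38926 gene symbols, of which 371 begin with Slc and a digit. Slc7a11 and Slc3a2 were left out by rule. A further 182 symbols did not reach 1 CPM, the count scaled to a library of 1000000 counts, in at least 3 of the 9 libraries. Of those, 83 had no count in any library. The 187 genes above that threshold all passed the filter for testing, and 11871 other symbols passed the same threshold. The genes were thus chosen by their expression level, so their being expressed is not a result. The genes just inside the threshold were Slc27a1, Slc25a47 and Slc6a4, with a third-highest value of 1.00, 1.06 and 1.07 CPM, and those just outside were Slc15a2, Slc2a5 and Slc36a3 with 0.864, 0.821 and 0.817 CPM. A level of 1 CPM was reached in all 9 libraries by 164 of the 187 genes. In 5 of them it was reached in 1 group alone, in the controls for Slc13a5, Slc25a23 and Slc7a3 and with shRNA-2 for Slc25a47 and Slc6a4, so these 5 had to differ between groups to be counted.

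Solute carriers are membrane proteins that move sugars, amino acids, vitamins, nucleotides, metals and inorganic ions across the plasma membrane and the membranes of organelles. Their genes carry the symbol Slc, a family number, a letter and a member number, and a family usually shares a fold and a kind of cargo. Most of them work as exchangers, cotransporters or facilitators driven by concentration gradients, unlike pumps that spend ATP. In blood cells they feed the dividing cell with glucose, glutamine and essential amino acids, and in phagocytes they also move iron, zinc and protons in and out of endosomes and phagosomes.

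Cells described in the labels as a murine MLL-AF9 leukaemia line from a tertiary transplant were transduced with short hairpin RNAs (shRNAs) against Syncrip, which encodes an RNA-binding protein, and collected on day 4. The groups were shRNA-1, shRNA-2 and a control hairpin, with 3 individually transduced cultures and 3 RNA-seq libraries each. The series text names the control as a hairpin against luciferase and the sample labels as a scrambled one, and which of these was used cannot be told from them. The MLL-AF9 oncogene is carried by all 3 groups, and the labels give no promoter, strain, age or number of donor animals. P-values therefore measure the spread between these cultures, not between animals.

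Library totals were 9559638 to 13416141 counts with shRNA-1, 14953491 to 15915940 with shRNA-2 and 13683660 to 19483923 in the controls. Syncrip itself had 20.1, 15.9 and 17.3 CPM with shRNA-1, 63.2, 46.3 and 60.4 CPM with shRNA-2 and 241, 231 and 207 CPM in the controls. Counts assigned to ribosomal RNA genes made up 15.4 ± 3.69%, 10.7 ± 4.84% and 6.97 ± 1.92% of the library with shRNA-1, shRNA-2 and the control hairpin (SD, n = 3 each). The summed level of 12 neutrophil markers was 29265 to 37596 CPM with shRNA-1, 35354 to 50338 CPM with shRNA-2 and 12218 to 12689 CPM in the controls, with none of the 12 at 0. Macrophage markers, 11 symbols with none at 0, summed to 118 to 182 CPM with shRNA-1, 513 to 921 CPM with shRNA-2 and 120 to 154 CPM in the controls. The 8 erythroid markers summed to at most 1.85 CPM in any library, with Alas2 and Epor among those at 0 in all 9. The 10 T cell markers summed to at most 4.80 CPM, with 5 at 0. The 8 leukaemia markers, among them Hoxa9, Meis1 and Kit, were all detected, and Hoxa9 and Meis1 were lower with both hairpins (log2 fold changes -0.55 ± 0.11 for shRNA-1 and -1.44 ± 0.12 for shRNA-2 and -0.37 ± 0.11 for shRNA-1 and -0.37 ± 0.11 for shRNA-2). The list was mixed, since of 7 tested 1 was higher and 4 lower with shRNA-1, and 1 higher and 3 lower with shRNA-2. Hoxa10 was higher with shRNA-1 (log2 fold change 0.37 ± 0.12) and Itgam with shRNA-2 (0.94 ± 0.15). The 6 megakaryocyte markers, with 1 at 0, summed to 6.37 to 9.32 CPM with shRNA-1, 43.5 to 51.2 CPM with shRNA-2 and 9.23 to 12.4 CPM in the controls. The 7 stromal and endothelial markers, with 1 at 0, summed to 6.04 to 9.04 CPM with shRNA-1, 20.6 to 24.7 CPM with shRNA-2 and 19.4 to 32.8 CPM in the controls. The summed neutrophil markers thus lay above the controls with both hairpins, the summed macrophage and megakaryocyte markers with shRNA-2, and the summed stromal markers below them with shRNA-1. Sums follow abundant members, and not every member moved with its sum. With shRNA-2, 9 of 11 tested neutrophil markers were higher and 1 was lower, Ltf (log2 fold change -1.15 ± 0.18). The megakaryocyte marker Gp9 was not called with shRNA-2 (-0.81 ± 0.34). Of 4 tested stromal and endothelial markers, 2 were called lower with shRNA-1. The part of these markers in the results below was not tested. In such bulk RNA, a changed number of cells of a type and a changed amount of RNA per cell cannot be told apart.

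Promoters of 4 carriers that the later results turn on are shown as sequence context. These 4 were picked from the 43 carriers called in the same direction with both hairpins, and do not stand for the rest. Each sequence is the 200 bases before the RefSeq transcription start on build GRCm38.p6, 5′ to 3′ on the gene's strand. Slc11a1 and Slc7a8 were higher with both hairpins, and Slc1a4 and Slc50a1 were lower. Capitals mark matches to GAGGAA, the core bound by the myeloid factor PU.1, or to TGATGNAA, bound by ATF4 with C/EBP, on either strand. The windows were also searched for CACGTG, with no match.
Slc11a1, chr1:74375003-74375202, plus strand, GAGGAA with its first base 152 bases before the start: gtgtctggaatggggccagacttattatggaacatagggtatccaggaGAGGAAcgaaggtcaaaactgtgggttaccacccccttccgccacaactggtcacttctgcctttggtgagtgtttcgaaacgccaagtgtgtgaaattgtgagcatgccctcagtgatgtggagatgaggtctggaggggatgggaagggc
Slc7a8, chr14:54781887-54782086, minus strand, the reverse complement of GAGGAA 194 bases before the start: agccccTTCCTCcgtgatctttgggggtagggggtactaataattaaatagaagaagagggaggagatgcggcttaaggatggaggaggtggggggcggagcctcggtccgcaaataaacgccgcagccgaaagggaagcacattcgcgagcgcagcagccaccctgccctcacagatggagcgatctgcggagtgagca
Slc1a4, chr11:20332714-20332913, minus strand, no match: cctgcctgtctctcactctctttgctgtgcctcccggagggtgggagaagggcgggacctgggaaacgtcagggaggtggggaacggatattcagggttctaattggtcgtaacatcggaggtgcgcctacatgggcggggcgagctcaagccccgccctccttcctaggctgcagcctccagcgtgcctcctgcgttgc
Slc50a1, chr3:89270571-89270770, minus strand, a match to TGATGNAA 189 bases before the start: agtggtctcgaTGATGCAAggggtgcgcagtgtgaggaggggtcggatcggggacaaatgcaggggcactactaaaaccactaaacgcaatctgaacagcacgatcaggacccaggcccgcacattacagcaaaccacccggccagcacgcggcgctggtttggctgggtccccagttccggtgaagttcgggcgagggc

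RefSeq promoters were found for 141 of the 187 genes, in 195 entries. Letters matching CACGTG, the E-box, stood within 250 bases before the start in 11.8% of these entries, against 6.02% of all 32851 promoters of the table. GAGGAA was present in 19.5% of the carriers' promoters and 23.3% of all promoters, and TGATGNAA in 2.05% and 3.45%. The core of the metal response element, TGCNCNC, was in 49.7% against 44.4%, and the NRF2 element, TGANNNNGC, in 44.6% against 35.2%. By direction, GAGGAA was in 16.1% of the entries of carriers called higher with both hairpins and 21.1% of those called lower with both. TGATGNAA was in 3.23% and 5.26% of them, 1 entry each. These shares describe letters on either strand, some of the motifs can overlap each other, and a match is not evidence that a factor binds. The carriers were chosen by expression, whereas the set of all promoters was not limited to expressed genes. A difference between the 2 sets thus cannot be read as a trait of carriers.

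The first question was which carriers changed with each hairpin. With shRNA-1, 46 of the 187 genes were higher and 21 lower than in the controls, at a Benjamini-Hochberg adjusted p under 0.05 in edgeR's quasi-likelihood test over 12663 genes. Such genes are named called below. These 67 genes are 35.8% of the carriers, close to the 34.7% of all tested genes called in that comparison. With shRNA-2, 68 were higher and 36 lower, 104 genes or 55.6% of the carriers beside 48.7% of all tested genes. The direction was less even than in the background. With shRNA-1, 24.6% of the carriers were higher and 11.2% lower, beside 17.4% and 17.3% of all tested genes. With shRNA-2, 36.4% were higher and 19.3% lower, beside 24.4% and 24.2%. The median log2 fold change of the carriers was 0.195 with shRNA-1 and 0.198 with shRNA-2, beside 0.023 and 0.00426 over all tested genes.

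Scaling moved the counts of all genes and of the carriers. Without the TMM factors, which correct library sizes for a few dominant genes, the median of all genes moved to -0.226 under shRNA-1 and -0.214 under shRNA-2. The carriers called were then 24 higher and 31 lower with shRNA-1 and 46 higher and 50 lower with shRNA-2. As shares of the carriers these are 12.8% higher and 16.6% lower with shRNA-1, beside 8.56% and 27.4% of all tested genes. With shRNA-2 they are 24.6% higher and 26.7% lower, beside 16.8% and 33.2%. Changes below are relative to the TMM scale. A covariate for the ribosomal RNA share left 25 carriers called with shRNA-1, 22 higher and 3 lower, and 94 with shRNA-2. With it 6.53% of all tested genes were higher and 4.19% lower with shRNA-1. Of the 43 carriers that lost their shRNA-1 call, the log2 fold change stayed at 80% of its size or above in 22 and was smaller in 21, so a lost call is not by itself a smaller change.

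Both hairpins gave a call in the same direction for 43 carriers, 26 higher and 17 lower, which is 13.9% and 9.09% of the 187 beside 9.24% and 9.57% of all tested genes. The hairpins share their control libraries. At least 2-fold with both hairpins were 9 of the higher and 7 of the lower genes. The 7 include Slc13a5 and Slc25a23, which reached 1 CPM in the controls alone and so had to be lower with the hairpins to be counted. A group of 20 carriers was called with shRNA-1 and not with shRNA-2, 57 with shRNA-2 and not with shRNA-1, and 63 with neither. More calls with shRNA-2 are not particular to the carriers, since 48.7% of all tested genes were called with shRNA-2 and 34.7% with shRNA-1. Between the hairpins, 73 carriers were called, 37 higher and 36 lower with shRNA-1 than with shRNA-2, or 39.0% beside 41.0% of all tested genes. That difference was called for 12 of the 20, 43 of the 57 and 4 of the 63. Without the 5 genes that reached the threshold in 1 group alone, the calls were 46 higher and 18 lower with shRNA-1 and 66 higher and 33 lower with shRNA-2. With both hairpins, 26 were then higher and 14 lower. Among the 164 genes at 1 CPM in all 9 libraries, 24 were higher and 10 lower with both.

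**Figure D1:**
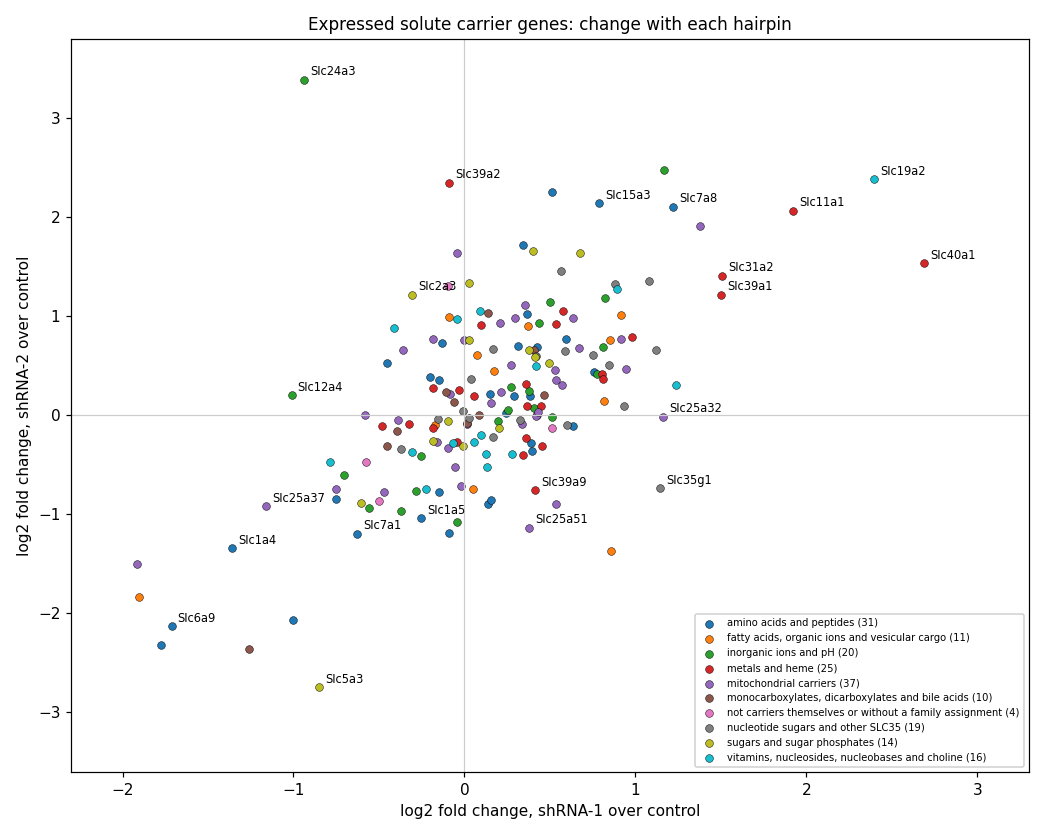
Each point is 1 of the 187 expressed carriers, coloured by substrate class, with its log2 fold change with shRNA-1 over control on the horizontal axis and with shRNA-2 over control on the vertical axis. Slc40a1, Slc11a1 and Slc19a2 lie far to the upper right, Slc24a3 at the top with a value below 0 for shRNA-1, and Slc35g1, Slc25a51 and Slc39a9 to the lower right, where the hairpins differ in sign.

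Counts by substrate class stand beside 17.4% higher and 17.3% lower with shRNA-1, and 24.4% and 24.2% with shRNA-2, over all tested genes. Carriers of metals and heme had 11 of 25 genes higher and 0 lower with shRNA-1, and 10 higher and 2 lower with shRNA-2. Among nucleotide sugar and other SLC35 carriers, 10 of 19 were higher and 1 lower with shRNA-1, and 10 higher and 2 lower with shRNA-2. Amino acid and peptide carriers had 3 of 31 higher and 6 lower with shRNA-1, and 10 higher and 12 lower with shRNA-2. Sugar carriers had 0 of 14 higher and 2 lower with shRNA-1, and 8 higher and 2 lower with shRNA-2. Mitochondrial carriers numbered 37, of which 10 were higher and 4 lower with shRNA-1 and 11 higher and 6 lower with shRNA-2. Their called shares of 37.8% and 45.9% are near the 34.7% and 48.7% of all tested genes. No class was tested against another.

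**Figure D2:**
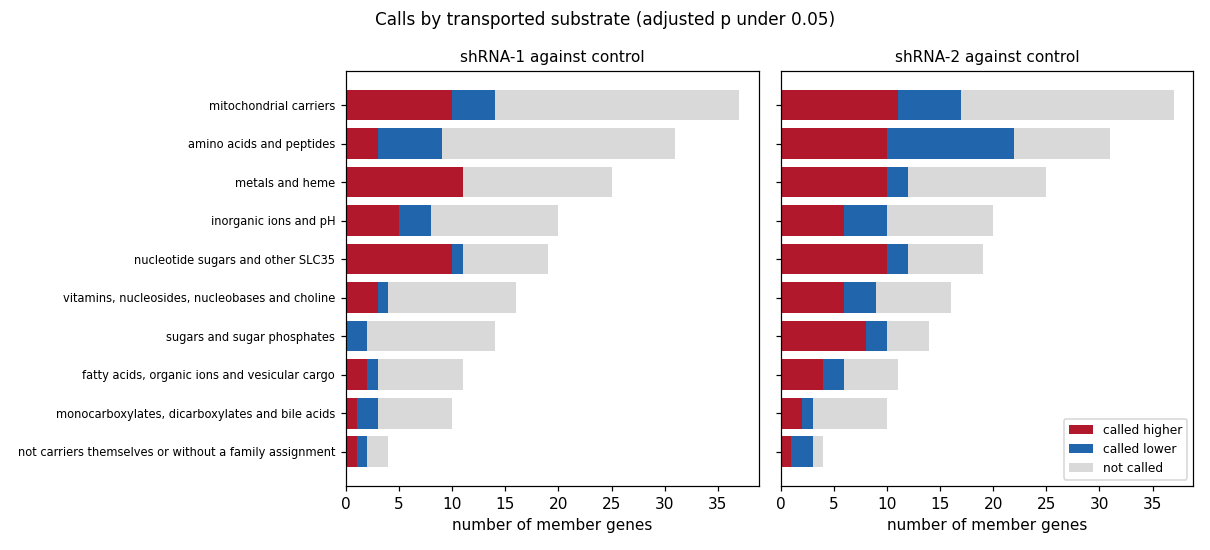
Stacked bars give the number of members of each substrate class with shRNA-1 and with shRNA-2 against the controls. From the left, each bar holds the members called higher, those called lower and those not called. The called members are mostly higher for metal and SLC35 carriers with both hairpins, and for sugar carriers with shRNA-2.

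The summed level of a class followed its few abundant members. All 187 genes together summed to 9531 ± 234 CPM with shRNA-1, 8446 ± 234 CPM with shRNA-2 and 8462 ± 296 CPM in the controls (SD, n = 3 each). That order depends on the TMM factors. As unscaled shares of all counts, the carriers made up 0.894 ± 0.062% with shRNA-1, 0.809 ± 0.071% with shRNA-2 and 0.942 ± 0.026% in the controls. On that scale the means of both hairpins lay below the controls. Metal and heme carriers summed to 2306 ± 56.8 CPM, 1555 ± 81.3 CPM and 1592 ± 180.0 CPM in that order of groups. Amino acid carriers summed to 1458 ± 89.1 CPM, 1168 ± 107 CPM and 1525 ± 95.7 CPM. Per kilobase of exon, the highest mean levels in the controls belonged to Slc48a1 with 359 CPM per kb, Slc25a3 with 129.6, Slc16a3 with 125, Slc25a5 with 79 and Slc25a39 with 77.5. Division by exon length takes coverage as even along a transcript, which was not tested.

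Among the iron carriers, Slc40a1 and Slc11a1 were higher with both hairpins. Slc40a1 encodes ferroportin, the known iron exporter of mammalian cells, and lies at chr1:45908068-45926523 on mm10. Its level was 94.6, 148 and 203 CPM with shRNA-1, 39.3, 89.5 and 72 CPM with shRNA-2 and 26.3, 23.7 and 19.2 CPM in the controls. Every library of either hairpin lay above every control library, and with shRNA-1 the 3 libraries spread more than 2-fold. Its log2 fold changes were 2.69 ± 0.32 (adjusted p = 0.000198) with shRNA-1 and 1.54 ± 0.31 (adjusted p = 0.00153) with shRNA-2. A value with ± and an adjusted p is, here and below, a log2 fold change against the controls with its standard error (SE), unless it is named as a difference between hairpins. The level was also higher with shRNA-1 than with shRNA-2, by 1.15 ± 0.30 (adjusted p = 0.00917) on the log2 scale.

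Slc11a1 encodes NRAMP1, a metal transporter of the phagosome membrane that is typical of macrophages and neutrophils, and lies at chr1:74375195-74386062. It had 8.46, 12.2 and 19 CPM with shRNA-1, 9.88, 18.3 and 15.9 CPM with shRNA-2 and 4.51, 3.12 and 2.83 CPM in the controls, again with no overlap between either hairpin and the controls. Its log2 fold changes were 1.93 ± 0.32 (adjusted p = 0.00118) with shRNA-1 and 2.06 ± 0.32 (adjusted p = 0.000266) with shRNA-2. Between the hairpins no difference was called (-0.14 ± 0.30 (adjusted p = 0.742)). Under the ribosomal covariate the call with shRNA-1 was lost (adjusted p = 0.0665). The related Slc11a2, the DMT1 importer of ferrous iron, averaged 37.8 ± 4.55 CPM, 36.7 ± 3.78 CPM and 29.5 ± 4.74 CPM with shRNA-1, shRNA-2 and the control hairpin. It was called with neither, at log2 fold changes of 0.36 ± 0.15 (adjusted p = 0.081) with shRNA-1 and 0.31 ± 0.15 (adjusted p = 0.0984) with shRNA-2.

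Slc48a1, which carries heme out of lysosomes, had 1332, 1385 and 1342 CPM with shRNA-1, 853, 814 and 713 CPM with shRNA-2 and 1162, 841 and 957 CPM in the controls. The shRNA-1 libraries lay above all control libraries, and the shRNA-2 libraries overlapped the lowest control. Log2 fold changes were 0.46 ± 0.15 (adjusted p = 0.0318) with shRNA-1 and -0.31 ± 0.15 (adjusted p = 0.0955) with shRNA-2. Between hairpins the difference was 0.77 ± 0.15 (adjusted p = 0.00155). The call with shRNA-1 was lost without TMM factors, without the filter on low counts, and with the ribosomal covariate. It was also lost without any 1 of shRNA-1 replicates 1, 2 or 3 or control replicates 2 or 3 (adjusted p up to 0.138).

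On the mitochondrial side, Slc25a37 encodes mitoferrin-1, which brings iron to the matrix for heme and iron-sulphur cluster synthesis. It had 45.5, 43 and 40.3 CPM with shRNA-1, 59.8, 44.5 and 48 CPM with shRNA-2 and 85.1, 72.2 and 131 CPM in the controls. No knockdown library reached a control library. On the log2 scale the changes were -1.16 ± 0.20 (adjusted p = 0.0014) with shRNA-1 and -0.92 ± 0.20 (adjusted p = 0.00249) with shRNA-2. Its call with shRNA-1 was lost with the ribosomal covariate (adjusted p = 0.0981). Its broadly expressed paralog Slc25a28 was not called (log2 fold changes -0.39 ± 0.18 for shRNA-1 and -0.04 ± 0.18 for shRNA-2). Slc25a38, a mitochondrial glycine carrier needed for the heme precursor, was higher with shRNA-2, by 1.11 ± 0.18 (adjusted p = 0.000425), and not called with shRNA-1 (0.36 ± 0.19 (adjusted p = 0.161)). Slc25a39, a mitochondrial glutathione carrier, was not called with either hairpin (log2 fold changes -0.09 ± 0.18 for shRNA-1 and -0.33 ± 0.18 for shRNA-2).

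Copper and magnesium carriers held 2 further genes that were higher with both hairpins. Slc31a2, a relative of the copper importer found in endosomes, had 39, 47.2 and 56.8 CPM with shRNA-1, 34.8, 51.2 and 47.7 CPM with shRNA-2 and 14.6, 18.7 and 17 CPM in the controls. These libraries did not overlap the controls, and log2 fold changes were 1.51 ± 0.18 (adjusted p = 0.000215) with shRNA-1 and 1.41 ± 0.18 (adjusted p = 7.78e-05) with shRNA-2. The copper importer of the cell surface, Slc31a1, was not called (log2 fold changes -0.03 ± 0.12 for shRNA-1 and 0.26 ± 0.12 for shRNA-2). Slc41a3, of the magnesium family SLC41, was higher by log2 fold changes of 0.98 ± 0.27 for shRNA-1 and 0.79 ± 0.27 for shRNA-2. Slc41a2 was called with shRNA-2 (1.06 ± 0.23 (adjusted p = 0.00292)) and not with shRNA-1 (0.58 ± 0.24 (adjusted p = 0.0856)). Both calls of Slc41a3 were lost without TMM factors. Its shRNA-1 call was also lost without shRNA-1 replicate 1 or control replicate 3 (adjusted p up to 0.0707), and its shRNA-2 call without shRNA-2 replicate 1 or control replicate 3 (adjusted p up to 0.114).

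Zinc is moved toward the cytosol by the SLC39 (ZIP) family and away from it by the SLC30 (ZnT) family. Of 11 SLC39 genes, 3 were higher and 0 lower with shRNA-1, and 4 higher and 1 lower with shRNA-2. Of 5 SLC30 genes, 3 were higher and 0 lower with shRNA-1, and 1 was higher and 1 lower with shRNA-2. Called with shRNA-1 and shRNA-2 were thus 27.3% and 45.5% of the SLC39 genes and 60% and 40% of the SLC30 genes. Over all tested genes these shares were 34.7% and 48.7%. Slc39a1, a ZIP importer of the cell surface, had 31, 30.9 and 26.6 CPM with shRNA-1, 21.7, 25.3 and 25.8 CPM with shRNA-2 and 12.6, 11.9 and 6.9 CPM in the controls. Both hairpins lay above all controls, with log2 fold changes of 1.50 ± 0.20 (adjusted p = 0.000405) with shRNA-1 and 1.22 ± 0.20 (adjusted p = 0.000414) with shRNA-2. Slc39a11 had 263, 217 and 204 CPM with shRNA-1, 182, 167 and 154 CPM with shRNA-2 and 145, 124 and 121 CPM in the controls, again without overlap. This gave log2 fold changes of 0.81 ± 0.13 (adjusted p = 0.00111) with shRNA-1 and 0.37 ± 0.13 (adjusted p = 0.0382) with shRNA-2. Its shRNA-2 call was lost without TMM factors, without the low-count filter, and without any 1 of shRNA-1 replicate 2, shRNA-2 replicates 1 or 2 or control replicates 2 or 3 (adjusted p up to 0.114).

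Slc39a2 moved with shRNA-2 and not with shRNA-1. Its values were 3.73, 1.08 and 1.66 CPM with shRNA-1, 7.36, 12.7 and 13.8 CPM with shRNA-2 and 2.28, 1.72 and 2.56 CPM in the controls, with the shRNA-2 libraries above all others. The log2 fold changes were -0.09 ± 0.41 (adjusted p = 0.888) with shRNA-1 and 2.34 ± 0.36 (adjusted p = 0.000276) with shRNA-2. The hairpins differed by -2.44 ± 0.39 (adjusted p = 0.000458). Slc39a2 shares exon bases on the same strand with Mettl17, which was lower with shRNA-2 (-0.82 ± 0.19 (adjusted p = 0.00359)), and reads of the shared bases cannot be told apart. Slc39a14, an importer of zinc, iron and manganese, was likewise called with shRNA-2 (0.91 ± 0.25 (adjusted p = 0.0111)) and not with shRNA-1 (0.10 ± 0.27 (adjusted p = 0.809)). Its call was lost with the ribosomal covariate (adjusted p = 0.0522).

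Slc30a7, which loads zinc into the Golgi, was higher with both hairpins, at 35.8, 38.6 and 41.2 CPM with shRNA-1, 44.2, 57.7 and 49.8 CPM with shRNA-2 and 24.3, 28.8 and 26.7 CPM in the controls. Its log2 fold changes were 0.54 ± 0.13 (adjusted p = 0.00961) with shRNA-1 and 0.92 ± 0.13 (adjusted p = 0.000164) with shRNA-2. The shRNA-1 call was lost without TMM factors and with the ribosomal covariate. Slc30a5 and Slc30a6 encode the partners of a zinc carrier of the early secretory pathway. Slc30a6 was higher with shRNA-1 (0.80 ± 0.18 (adjusted p = 0.00515), lost with the ribosomal covariate, adjusted p = 0.228) and not called with shRNA-2 (0.41 ± 0.18 (adjusted p = 0.0718)). Slc30a5 was lower with shRNA-2 (-0.40 ± 0.14 (adjusted p = 0.0376)) and not called with shRNA-1 (0.34 ± 0.14 (adjusted p = 0.0833)). This call did not hold with the ribosomal covariate and without any 1 of shRNA-1 replicate 2, shRNA-2 replicates 2 or 3 or control replicates 1, 2 or 3 (adjusted p up to 0.151). The zinc exporter of the plasma membrane, Slc30a1, was called with neither hairpin (log2 fold changes -0.18 ± 0.14 for shRNA-1 and 0.28 ± 0.14 for shRNA-2).

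**Figure D3:**
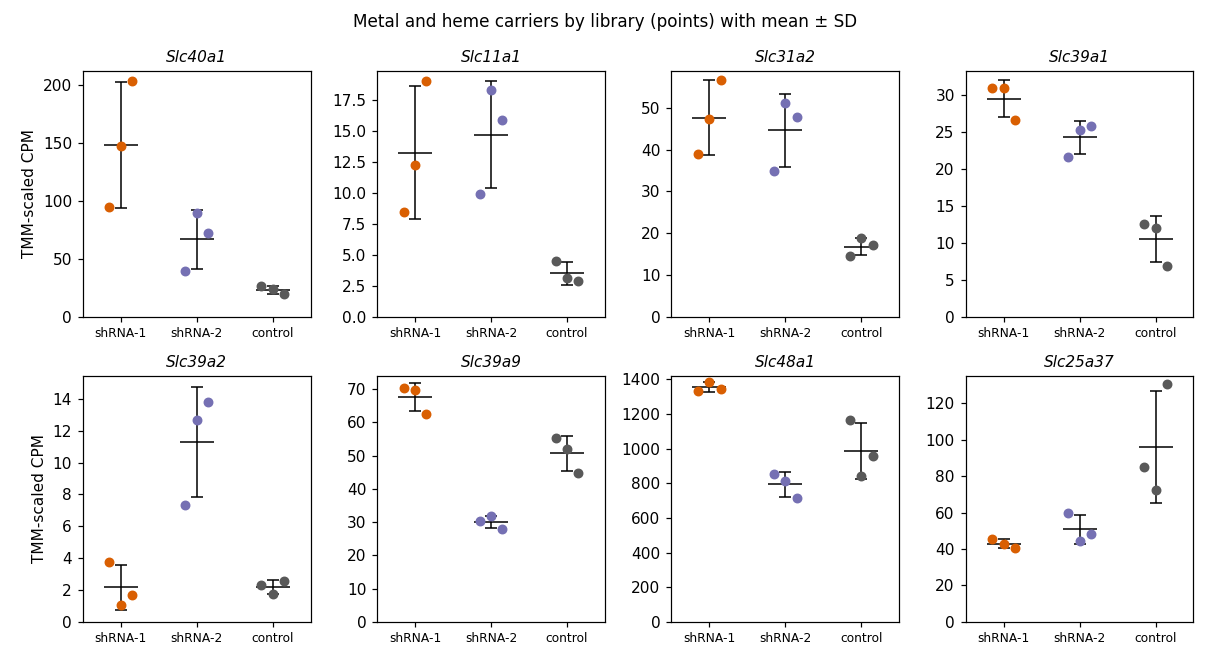
Points give the TMM-scaled CPM of each library for 8 metal and heme carriers, with shRNA-1 on the left, shRNA-2 in the middle and the controls on the right, and bars give the mean and SD of 3 libraries. Both hairpins lie above the controls for Slc40a1, Slc11a1, Slc31a2 and Slc39a1, whereas Slc39a9 lies above the controls with shRNA-1 and below them with shRNA-2.

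Other genes of iron and zinc handling were counted beside the carriers. Of 12 tested iron-handling genes, 4 were higher and 0 lower with shRNA-1, and 6 were higher and 1 lower with shRNA-2. Called were thus 33.3% and 58.3% of them, beside 34.7% and 48.7% of all tested genes. Hmox1, which opens the heme ring and releases its iron, was higher with both hairpins (log2 fold changes 2.06 ± 0.50 for shRNA-1 and 1.64 ± 0.49 for shRNA-2). The ferritin heavy chain gene Fth1 was called with shRNA-2 (2.04 ± 0.32 (adjusted p = 0.000309)) and not with shRNA-1 (0.35 ± 0.31 (adjusted p = 0.406)). The transferrin receptor gene Tfrc was called with shRNA-1 (0.73 ± 0.12 (adjusted p = 0.00101)) and not with shRNA-2 (-0.11 ± 0.12 (adjusted p = 0.447)). Among 3 zinc-binding response genes, the metallothionein genes Mt1 and Mt2 were higher with shRNA-2 (0.74 ± 0.13 and 1.63 ± 0.33), and 0 were called with shRNA-1.

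Among the families that hold most amino acid carriers, more genes were lower than higher with shRNA-2. Of the 22 such genes, from the families SLC1, SLC7, SLC32, SLC36, SLC38 and SLC43 without the nucleobase carrier Slc43a3, 6 were higher and 11 lower with shRNA-2, and 3 higher and 5 lower with shRNA-1. Over all tested genes, 24.4% were higher and 24.2% lower with shRNA-2, and 17.4% and 17.3% with shRNA-1. The whole class of 31 was more even with shRNA-2, at 10 higher and 12 lower and a median log2 fold change of 0.198. The 22 include Slc7a3, which reached 1 CPM in the controls alone. Slc1a5, the glutamine and neutral amino acid exchanger, had 186, 156 and 133 CPM with shRNA-1, 111, 79.8 and 83.5 CPM with shRNA-2 and 188, 166 and 211 CPM in the controls. The shRNA-2 libraries lay below all others and the shRNA-1 libraries overlapped the controls. In log2 fold changes this was -0.26 ± 0.17 (adjusted p = 0.252) with shRNA-1 and -1.04 ± 0.17 (adjusted p = 0.000353) with shRNA-2. Between hairpins the difference was 0.79 ± 0.17 (adjusted p = 0.00289).

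The sodium-coupled glutamine and alanine carriers Slc38a1 and Slc38a2 were both lower with shRNA-2. Slc38a1 had 277, 311 and 234 CPM with shRNA-1, 165, 108 and 128 CPM with shRNA-2 and 301, 245 and 201 CPM in the controls. Slc38a2 had 208, 190.2 and 170.2 CPM with shRNA-1, 139, 111 and 119.5 CPM with shRNA-2 and 239.9, 201 and 189.8 CPM in the controls. For each, shRNA-2 lay below all other libraries. The log2 fold changes with shRNA-2 were -0.90 ± 0.19 (adjusted p = 0.00211) for Slc38a1 and -0.77 ± 0.14 (adjusted p = 0.000751) for Slc38a2. With shRNA-1 they were 0.14 ± 0.19 (adjusted p = 0.599) and -0.15 ± 0.14 (adjusted p = 0.42). Slc7a5, the light chain of the LAT1 exchanger of leucine and other large neutral amino acids, had 83, 74.6 and 64.5 CPM with shRNA-1, 53.8, 30.7 and 25.3 CPM with shRNA-2 and 73.2, 78.8 and 47.6 CPM in the controls. A single control library lay within the shRNA-2 range. The log2 fold change with shRNA-2 was -0.86 ± 0.26 (adjusted p = 0.0169). That call was lost without any 1 of shRNA-2 replicates 2 or 3 or control replicates 1 or 2 (adjusted p up to 0.0729).

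Carriers of cationic amino acids split by gene. Slc7a1, the main arginine and lysine importer of dividing cells, had 159.9, 135 and 123 CPM with shRNA-1, 119.6, 73.5 and 88.1 CPM with shRNA-2 and 236, 219 and 191 CPM in the controls. All knockdown libraries lay below all controls. It was lower, at -0.63 ± 0.18 (adjusted p = 0.0168) with shRNA-1 and -1.20 ± 0.18 (adjusted p = 0.000199) with shRNA-2. Its call with shRNA-1 was lost with the ribosomal covariate (adjusted p = 0.382) and without any 1 of shRNA-1 replicates 2 or 3 or control replicates 1 or 2 (adjusted p up to 0.0689). Slc7a2, the arginine carrier known from activated macrophages, had 5.38, 5.3 and 5.08 CPM with shRNA-1, 7.3, 17.7 and 16.1 CPM with shRNA-2 and 3.75, 5.17 and 3.58 CPM in the controls. Its level was higher with shRNA-2 (1.72 ± 0.29 (adjusted p = 0.000533)), where the libraries spread more than 2-fold, and was not called with shRNA-1 (0.34 ± 0.31 (adjusted p = 0.415)). Slc7a7, which with the heavy chain exports cationic amino acids, was higher with shRNA-2 (0.70 ± 0.16 (adjusted p = 0.00326)) and not called with shRNA-1 (0.31 ± 0.16 (adjusted p = 0.149)). It overlaps Oxa1l on the opposite strand, which was lower with both hairpins (log2 fold changes -0.44 ± 0.11 for shRNA-1 and -0.41 ± 0.11 for shRNA-2). Slc7a3 reached 1 CPM in the controls alone, at 1.01, 1.52 and 1.02 CPM.

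Slc1a4, the neutral amino acid exchanger ASCT1, whose promoter is shown above, was lower with both hairpins. It had 5.82, 4.53 and 3.23 CPM with shRNA-1, 5.22, 4.56 and 3.85 CPM with shRNA-2 and 11, 12.5 and 11.2 CPM in the controls. All knockdown libraries lay below all controls, with log2 fold changes of -1.36 ± 0.22 (adjusted p = 0.000975) with shRNA-1 and -1.34 ± 0.21 (adjusted p = 0.000311) with shRNA-2. No difference between hairpins was called (-0.02 ± 0.23 (adjusted p = 0.968)). Slc6a9, the glycine transporter GlyT1, had 2.75, 2.23 and 2.03 CPM with shRNA-1, 2.88, 1.08 and 1.15 CPM with shRNA-2 and 7.5, 8.29 and 7.12 CPM in the controls. No knockdown library reached a control library, and it was lower, at -1.71 ± 0.32 (adjusted p = 0.00213) with shRNA-1 and -2.13 ± 0.32 (adjusted p = 0.000227) with shRNA-2. Slc38a10 was lower as well, at -0.75 ± 0.15 (adjusted p = 0.00331) with shRNA-1 and -0.84 ± 0.15 (adjusted p = 0.000816) with shRNA-2. With the ribosomal covariate the shRNA-1 calls of Slc6a9 (adjusted p = 0.111) and Slc38a10 (adjusted p = 0.152) were lost, and that of Slc1a4 was kept (adjusted p = 0.0338).

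In the other direction moved Slc7a8, the LAT2 light chain for neutral amino acids, at chr14:54722209-54781946. It had 31.1, 35.3 and 26.4 CPM with shRNA-1, 69, 55.1 and 47.2 CPM with shRNA-2 and 15.2, 14.5 and 10.3 CPM in the controls. Both hairpins lay above all controls and shRNA-2 above shRNA-1, with log2 fold changes of 1.22 ± 0.19 (adjusted p = 0.000885) with shRNA-1 and 2.10 ± 0.19 (adjusted p = 6.97e-06) with shRNA-2. The difference between hairpins was -0.88 ± 0.18 (adjusted p = 0.00264). Slc15a3, a peptide and histidine carrier of lysosomes in immune cells, had 8.02, 20.7 and 25.8 CPM with shRNA-1, 27.5, 53.4 and 59.1 CPM with shRNA-2 and 9.13, 10.01 and 12.6 CPM in the controls. The shRNA-2 libraries lay above all others, while 1 shRNA-1 library lay below all controls. Its log2 fold changes were 0.79 ± 0.37 (adjusted p = 0.115) with shRNA-1 and 2.14 ± 0.36 (adjusted p = 0.000525) with shRNA-2. The shRNA-1 difference was called without the low-count filter, with the replicate block and without shRNA-1 replicate 1 or shRNA-2 replicate 1 (adjusted p from 0.00218). Macrophage markers, given above, were likewise higher with shRNA-2, and their part in the levels of Slc7a2 and Slc15a3 was not tested. Lysosomal amino acid carriers were mixed. Slc36a1 was higher with shRNA-1 (0.64 ± 0.13 (adjusted p = 0.00322)), a call lost with the ribosomal covariate at a log2 fold change of 0.65 (adjusted p = 0.0519), and Slc38a7 was higher with shRNA-2 (1.02 ± 0.23 (adjusted p = 0.00333)).

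**Figure D4:**
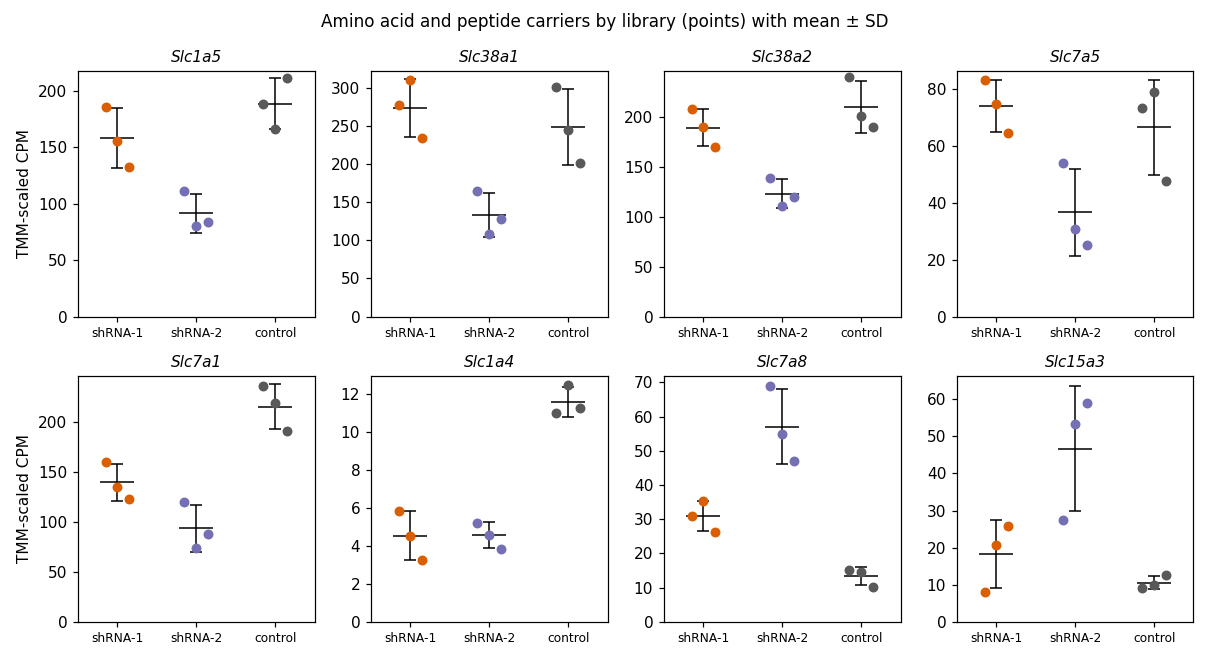
Points give the TMM-scaled CPM of each library for 8 amino acid and peptide carriers, with shRNA-1 on the left, shRNA-2 in the middle and the controls on the right, and bars give the mean and SD of 3 libraries. Slc1a5, Slc38a1 and Slc38a2 are low with shRNA-2, Slc7a1 and Slc1a4 with both hairpins, and Slc7a8 is high with both.

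The SLC35 family, most of which brings activated sugars from the cytosol to the Golgi and endoplasmic reticulum for glycosylation, was called higher more often than lower. The median log2 fold change of its 19 genes was 0.57 with shRNA-1 and 0.37 with shRNA-2. Slc35c1, the GDP-fucose carrier of the Golgi, was the most abundant, with 288, 332 and 279.9 CPM with shRNA-1, 364, 272 and 305 CPM with shRNA-2 and 232, 185 and 182 CPM in the controls. No knockdown library overlapped a control, and log2 fold changes were 0.59 ± 0.15 (adjusted p = 0.0103) with shRNA-1 and 0.65 ± 0.15 (adjusted p = 0.00345) with shRNA-2. Slc35d2, a carrier of UDP-N-acetylglucosamine, had 20.1, 23.3 and 19.7 CPM with shRNA-1, 20.2, 32.2 and 24.2 CPM with shRNA-2 and 10.5, 9.02 and 10.3 CPM in the controls. It rose without overlap, by 1.08 ± 0.17 (adjusted p = 0.00102) with shRNA-1 and 1.35 ± 0.17 (adjusted p = 7.31e-05) with shRNA-2.

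Further members rose with both hairpins. Slc35a1, the CMP-sialic acid carrier, had log2 fold changes of 0.42 ± 0.13 for shRNA-1 and 0.60 ± 0.13 for shRNA-2. Slc35b3, which carries the sulphate donor PAPS, had log2 fold changes of 0.85 ± 0.15 for shRNA-1 and 0.51 ± 0.14 for shRNA-2. Slc35a5 had log2 fold changes of 1.12 ± 0.19 for shRNA-1 and 0.65 ± 0.19 for shRNA-2. Slc35f5 had log2 fold changes of 0.75 ± 0.16 for shRNA-1 and 0.61 ± 0.16 for shRNA-2. Slc35a2, the UDP-galactose carrier, was higher with shRNA-1 (0.93 ± 0.29 (adjusted p = 0.0254)) and not called with shRNA-2 (0.09 ± 0.29 (adjusted p = 0.807)). Slc35f6 was higher with shRNA-2 (1.46 ± 0.27 (adjusted p = 0.00097)) and not called with shRNA-1 (0.57 ± 0.28 (adjusted p = 0.135)). Slc35a4, whose exons overlap Apbb3 on the opposite strand, was lower with both (log2 fold changes -0.37 ± 0.12 for shRNA-1 and -0.34 ± 0.12 for shRNA-2). Slc35b1, which exchanges ATP and ADP across the endoplasmic reticulum membrane, was not called (log2 fold changes 0.03 ± 0.11 for shRNA-1 and -0.03 ± 0.11 for shRNA-2).

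Many of the SLC35 calls depended on the processing. Without TMM factors 7 members were called with shRNA-1 and 7 with shRNA-2, against 11 and 12 with them. The shRNA-1 calls of Slc35a1, Slc35a2 and Slc35c1 and the shRNA-2 calls of Slc35c1, Slc35b3, Slc35a5 and Slc35f5 were among those lost. With the ribosomal covariate the shRNA-1 calls of Slc35a1 (adjusted p = 0.507), Slc35b3 (0.0576), Slc35a5 (0.0751), Slc35f5 (0.072) and Slc35a4 (0.109) were lost, as was the shRNA-2 call of Slc35a5 (0.0516). The shRNA-1 log2 fold changes were then 0.19 for Slc35a1, 0.69 for Slc35b3, 0.70 for Slc35a5, 0.71 for Slc35f5 and -0.45 for Slc35a4. Leaving out any 1 of shRNA-1 replicates 1 or 3 or control replicates 1, 2 or 3 (adjusted p up to 0.103) ended the shRNA-1 call of Slc35a1. That of Slc35c1 was lost without shRNA-1 replicate 2 or control replicates 2 or 3 (adjusted p up to 0.0556). That of Slc35a2 was lost without shRNA-1 replicates 1 or 2 or control replicates 2 or 3 (adjusted p up to 0.109). Slc35a4 lost its shRNA-1 call without shRNA-1 replicates 1, 2 or 3 or control replicates 2 or 3 (adjusted p up to 0.0932) and its shRNA-2 call without shRNA-2 replicate 1 or control replicates 1, 2 or 3 (adjusted p up to 0.105).

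Mitochondrial carriers, the SLC25 family of the inner membrane, moved in both directions. Slc25a51, which brings NAD into the matrix, lies at chr4:45395923-45408766 and had 131, 135 and 123 CPM with shRNA-1, 45, 48 and 43.5 CPM with shRNA-2 and 115, 92.5 and 92 CPM in the controls. The shRNA-1 libraries lay above and the shRNA-2 libraries below all controls. On the log2 scale the changes were 0.38 ± 0.12 (adjusted p = 0.0292) with shRNA-1 and -1.13 ± 0.12 (adjusted p = 2.31e-05) with shRNA-2, a difference between hairpins of 1.51 ± 0.12 (adjusted p = 5.45e-06). Slc25a32, a carrier of folate and the flavin cofactor FAD, had 11.6, 12.9 and 13.7 CPM with shRNA-1, 5.58, 5.65 and 5.67 CPM with shRNA-2 and 4.77, 6.76 and 5.61 CPM in the controls. A higher level was called with shRNA-1 (1.16 ± 0.17 (adjusted p = 0.000692)), whereas shRNA-2 libraries lay within the control range (-0.02 ± 0.18 (adjusted p = 0.949)). The hairpins differed by 1.18 ± 0.17 (adjusted p = 0.000279). Slc25a26, the carrier of the methyl donor S-adenosylmethionine, was lower with shRNA-2 (-0.89 ± 0.21 (adjusted p = 0.00449)) and not called with shRNA-1 (0.54 ± 0.20 (adjusted p = 0.0575)). Between hairpins the difference was 1.43 ± 0.21 (adjusted p = 0.000311).

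Both genes that follow encode exchangers of ADP and ATP. Slc25a4 had 137, 149 and 159 CPM with shRNA-1, 230.1, 242 and 281 CPM with shRNA-2 and 159, 149 and 136 CPM in the controls. It was higher with shRNA-2, by 0.76 ± 0.12 (adjusted p = 0.00038). Slc25a5 had 276, 269 and 205 CPM with shRNA-1, 246, 158 and 134 CPM with shRNA-2 and 129, 148 and 113 CPM in the controls. Its level was higher with shRNA-1 (0.94 ± 0.21 (adjusted p = 0.00565)) and not called with shRNA-2 (0.46 ± 0.21 (adjusted p = 0.0874)). The shRNA-2 difference was called without the low-count filter, with the replicate block, with the ribosomal covariate and without shRNA-2 replicate 3 (adjusted p from 0.0196), and the difference between the hairpins, not called here (0.48 ± 0.21 (adjusted p = 0.0883)), was called without the low-count filter, with the replicate block, with the ribosomal covariate and without shRNA-2 replicate 1 (adjusted p from 0.00231). Its value is uncertain because near-identical processed pseudogenes can take or share its reads. The phosphate carrier Slc25a3, the most abundant of the family, was called with neither (log2 fold changes 0.02 ± 0.15 for shRNA-1 and -0.09 ± 0.15 for shRNA-2). Slc25a24, an exchanger of ATP-magnesium and phosphate, was higher with both hairpins (0.63 ± 0.11 (adjusted p = 0.00147) with shRNA-1 and 0.98 ± 0.11 (adjusted p = 3.13e-05) with shRNA-2). Its relative Slc25a23 was lower with both (log2 fold changes -1.91 ± 0.32 for shRNA-1 and -1.51 ± 0.29 for shRNA-2), though it reached 1 CPM in the controls alone.

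Among carriers of amino acids into mitochondria, Slc25a12, an aspartate and glutamate exchanger, had 124, 109 and 112 CPM with shRNA-1, 166, 190.0 and 198 CPM with shRNA-2 and 95.8, 89.4 and 95.2 CPM in the controls. It was called with shRNA-2 (0.98 ± 0.11 (adjusted p = 3.95e-05)) and not with shRNA-1 (0.29 ± 0.11 (adjusted p = 0.0648)). Its paralog Slc25a13 was called with shRNA-1 (0.43 ± 0.12 (adjusted p = 0.0194)) and not with shRNA-2 (0.01 ± 0.12 (adjusted p = 0.975)). This call did not hold without TMM factors, without the low-count filter, with the ribosomal covariate and without any 1 of shRNA-1 replicates 2 or 3 or control replicate 3 (adjusted p up to 0.0824). The ornithine carrier of the urea cycle, Slc25a15, had 17.8, 18.2 and 16.4 CPM with shRNA-1, 15.2, 19.7 and 17.7 CPM with shRNA-2 and 27.6, 31.4 and 29.4 CPM in the controls. It was lower with both hairpins, without overlap, at -0.75 ± 0.13 (adjusted p = 0.00152) with shRNA-1 and -0.75 ± 0.13 (adjusted p = 0.000625) with shRNA-2. The glutamate carrier Slc25a22 was higher with both (0.91 ± 0.26 (adjusted p = 0.018) with shRNA-1 and 0.77 ± 0.26 (adjusted p = 0.0265) with shRNA-2). Both calls were lost without TMM factors. The shRNA-1 call was also lost without shRNA-1 replicate 2 or control replicates 1 or 2 (adjusted p up to 0.0674), and the shRNA-2 call without shRNA-2 replicate 1 or control replicates 1 or 2 (adjusted p up to 0.11). Slc25a46, an outer membrane member tied to organelle shape, and Slc25a33, a pyrimidine nucleotide carrier, were called with shRNA-2 alone, at -0.71 ± 0.15 (adjusted p = 0.00196) and 0.77 ± 0.14 (adjusted p = 0.000645). The hairpins differed for both (0.69 ± 0.15 (adjusted p = 0.00313) and -0.96 ± 0.14 (adjusted p = 0.000258)).

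Sugar carriers were called higher with shRNA-2 in 8 of 14 cases and with shRNA-1 in 0 of 14, and their median log2 fold change was 0.56 with shRNA-2 and 0.03 with shRNA-1. Slc2a1, the basal glucose carrier GLUT1, had 119, 163 and 111 CPM with shRNA-1, 155, 139 and 148 CPM with shRNA-2 and 88, 109.7 and 97.4 CPM in the controls. Both hairpins lay above all controls. The difference with shRNA-2 was called (0.58 ± 0.15 (adjusted p = 0.00758)), though not without TMM factors. That with shRNA-1 was not (0.41 ± 0.15 (adjusted p = 0.0529)), but was called in DESeq2, with the replicate block and without shRNA-1 replicate 3 or shRNA-2 replicate 1 (adjusted p from 0.0353). Between the hairpins no difference was called (-0.17 ± 0.15 (adjusted p = 0.399)). Slc2a3, the high-affinity glucose carrier GLUT3, had 2.97, 3.92 and 2.31 CPM with shRNA-1, 11.2, 8.28 and 7.15 CPM with shRNA-2 and 4.46, 3.58 and 3.4 CPM in the controls, with shRNA-2 above all other libraries. Its log2 fold changes were -0.31 ± 0.26 (adjusted p = 0.388) with shRNA-1 and 1.22 ± 0.24 (adjusted p = 0.00136) with shRNA-2. The hairpins differed by -1.52 ± 0.25 (adjusted p = 0.000628).

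Slc2a6, a lysosomal member of the family, had 1.87, 5.38 and 5.26 CPM with shRNA-1, 9.39, 11.9 and 10.2 CPM with shRNA-2 and 2.08, 5.17 and 5.26 CPM in the controls. Libraries within the shRNA-1 and control groups spread more than 2-fold, and the shRNA-2 libraries lay above all of them (1.33 ± 0.36 (adjusted p = 0.00993)). Slc37a2, a glucose-6-phosphate antiporter of the endoplasmic reticulum abundant in macrophages, had 4.17, 6.84 and 6.55 CPM with shRNA-1, 11.1, 15.1 and 16.4 CPM with shRNA-2 and 3.7, 3.78 and 5.84 CPM in the controls. A higher level was called with shRNA-2 by 1.66 ± 0.25 (adjusted p = 0.000199). Its relatives Slc37a3 and Slc37a4, the glucose-6-phosphate carrier needed to release free glucose in liver, were also higher with shRNA-2 (1.64 ± 0.45 (adjusted p = 0.00997) and 0.66 ± 0.14 (adjusted p = 0.00259)). The hairpins differed for Slc37a2 by -1.26 ± 0.25 (adjusted p = 0.00184). Macrophage markers were higher with shRNA-2 as well, and their part in these values was not tested.

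Against that direction, 2 sugar carriers were lower with both hairpins. Slc50a1, the mammalian SWEET carrier whose promoter is shown above, had 12.7, 15.6 and 15.1 CPM with shRNA-1, 9.76, 12.5 and 13.8 CPM with shRNA-2 and 19.6, 24.9 and 21.9 CPM in the controls. No knockdown library reached a control, with log2 fold changes of -0.60 ± 0.16 (adjusted p = 0.0138) with shRNA-1 and -0.88 ± 0.16 (adjusted p = 0.000855) with shRNA-2. Slc5a3, the sodium-coupled carrier of the osmolyte myo-inositol, had 3.07, 3.15 and 2.21 CPM with shRNA-1, 0.614, 0.696 and 0.944 CPM with shRNA-2 and 5.32, 5.83 and 4.16 CPM in the controls. The 3 groups did not overlap, and log2 fold changes were -0.85 ± 0.24 (adjusted p = 0.0189) with shRNA-1 and -2.75 ± 0.28 (adjusted p = 1.54e-05) with shRNA-2. It shares exon bases with Mrps6 on the same strand, which was not called (log2 fold changes -0.03 ± 0.14 for shRNA-1 and -0.05 ± 0.14 for shRNA-2). The shRNA-1 calls were lost with the ribosomal covariate for Slc50a1 (adjusted p = 0.0526) and Slc5a3 (adjusted p = 0.11). That of Slc50a1 was also lost without shRNA-1 replicate 1 or control replicate 2 (adjusted p up to 0.0576), and that of Slc5a3 without shRNA-1 replicate 3 or control replicates 1 or 2 (adjusted p up to 0.0795). Of 9 tested genes for glucose phosphorylation and lactate, 0 were higher and 3 lower with shRNA-1, and 3 higher and 2 lower with shRNA-2, or 33.3% and 55.6% beside 34.7% and 48.7% of all tested genes.

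Lactate leaves and enters cells through Slc16a1 and Slc16a3, known as MCT1 and MCT4. Slc16a3 had 556, 505 and 464 CPM with shRNA-1, 588, 672 and 531 CPM with shRNA-2 and 554, 728 and 719 CPM in the controls. Each hairpin overlapped the controls, and neither gave a call (-0.39 ± 0.15 (adjusted p = 0.0614) with shRNA-1 and -0.16 ± 0.15 (adjusted p = 0.398) with shRNA-2). The lower shRNA-1 level was called without TMM factors, without the low-count filter, in DESeq2, with the replicate block and without shRNA-2 replicates 1 or 2 or control replicate 1 (adjusted p from 0.00853). Slc16a1 had 48.3, 49.2 and 48.4 CPM with shRNA-1, 48.1, 47.7 and 41.4 CPM with shRNA-2 and 55.5, 47.7 and 41.2 CPM in the controls. It was not called either (log2 fold changes 0.02 ± 0.13 for shRNA-1 and -0.07 ± 0.13 for shRNA-2). Their chaperone genes, Bsg and Emb, were both higher with shRNA-2 (0.68 ± 0.16 (adjusted p = 0.00357) and 1.04 ± 0.15 (adjusted p = 0.00015)). Neither was called with shRNA-1 (-0.30 ± 0.16 (adjusted p = 0.158) and -0.01 ± 0.15 (adjusted p = 0.966)). Slc16a6 was lower with shRNA-1 (-0.45 ± 0.14 (adjusted p = 0.0225)). This call did not hold with the ribosomal covariate (adjusted p = 0.486) and without any 1 of shRNA-1 replicates 1, 2 or 3 or control replicates 1 or 3 (adjusted p up to 0.0996). Amz2, which overlaps Slc16a6 on the opposite strand, was higher with both hairpins (log2 fold changes 0.35 ± 0.11 for shRNA-1 and 0.42 ± 0.11 for shRNA-2). The dicarboxylate carrier Slc13a3 was higher with shRNA-2 (1.03 ± 0.16 (adjusted p = 0.000281)) and not called with shRNA-1 (0.14 ± 0.16 (adjusted p = 0.551)). The citrate carrier Slc13a5 reached 1 CPM in the controls alone.

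Vitamin and nucleoside carriers included the carrier whose smaller change of the pair of hairpins was largest. Slc19a2, the thiamine carrier THTR1 at chr1:164249046-164265385, had 26.1, 32.6 and 43.6 CPM with shRNA-1, 29.9, 40.5 and 31.2 CPM with shRNA-2 and 7.81, 5.37 and 6.23 CPM in the controls. All 6 knockdown libraries lay above all controls. The level was 5.26-fold higher with shRNA-1 and 5.21-fold higher with shRNA-2, or 2.39 ± 0.22 (adjusted p = 4.2e-05) with shRNA-1 and 2.38 ± 0.21 (adjusted p = 6.48e-06) with shRNA-2 on the log2 scale. No difference between the hairpins was called (0.01 ± 0.20 (adjusted p = 0.967)). Slc19a1, the reduced folate carrier through which methotrexate also enters, had 44.5, 38.3 and 39.1 CPM with shRNA-1, 26.6, 34 and 24.3 CPM with shRNA-2 and 45.4, 47.1 and 49.9 CPM in the controls. It was lower with shRNA-2 (-0.75 ± 0.14 (adjusted p = 0.000964)) and not called with shRNA-1 (-0.23 ± 0.14 (adjusted p = 0.226)). The proton-coupled folate carrier Slc46a1 was not called (log2 fold changes -0.31 ± 0.22 for shRNA-1 and -0.38 ± 0.22 for shRNA-2).

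Slc23a2, which takes up vitamin C with sodium, had 9.12, 11.3 and 10.2 CPM with shRNA-1, 13.1, 14.3 and 12.7 CPM with shRNA-2 and 5.02, 4.71 and 6.72 CPM in the controls. It was higher with both hairpins, without overlap, by 0.89 ± 0.18 (adjusted p = 0.00297) with shRNA-1 and 1.27 ± 0.17 (adjusted p = 0.000119) with shRNA-2. Slc28a2, a sodium-coupled purine nucleoside carrier, had 48.1, 48.2 and 44.7 CPM with shRNA-1, 29.1, 23.1 and 21.7 CPM with shRNA-2 and 25, 18 and 16.8 CPM in the controls. It was higher with shRNA-1 (1.24 ± 0.17 (adjusted p = 0.000425)) and not called with shRNA-2 (0.31 ± 0.17 (adjusted p = 0.149)). Between hairpins the difference was 0.93 ± 0.17 (adjusted p = 0.001). Of the equilibrative nucleoside carriers, the lysosomal Slc29a3 had 28.7, 29.6 and 28.2 CPM with shRNA-1, 60.5, 53.2 and 61.3 CPM with shRNA-2 and 31.6, 29.9 and 27.9 CPM in the controls. Its level was higher with shRNA-2 (0.97 ± 0.11 (adjusted p = 3.96e-05)). Slc29a1, the main surface carrier of nucleosides and cytarabine, was lower with shRNA-2 (-0.52 ± 0.17 (adjusted p = 0.0277)) with overlap of the libraries. That call was lost without any 1 of shRNA-2 replicates 1 or 3 or control replicates 2 or 3 (adjusted p up to 0.122). Slc44a2, of the choline family, was lower with shRNA-1 (-0.79 ± 0.18 (adjusted p = 0.00712)) and not called with shRNA-2 (-0.47 ± 0.18 (adjusted p = 0.0503)). This call did not hold with the ribosomal covariate (adjusted p = 0.164). The lower shRNA-2 level was called with DESeq2 size factors, without TMM factors, without the low-count filter, in DESeq2, with the replicate block and without shRNA-2 replicate 1 or control replicate 1 (adjusted p from 0.0114). The purine nucleobase carrier Slc43a3 was called with neither hairpin (log2 fold changes 0.13 ± 0.16 for shRNA-1 and -0.40 ± 0.16 for shRNA-2), though with shRNA-2 it was called without TMM factors, without the low-count filter, with the replicate block and without shRNA-2 replicate 1 (adjusted p from 0.00601).

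**Figure D5:**
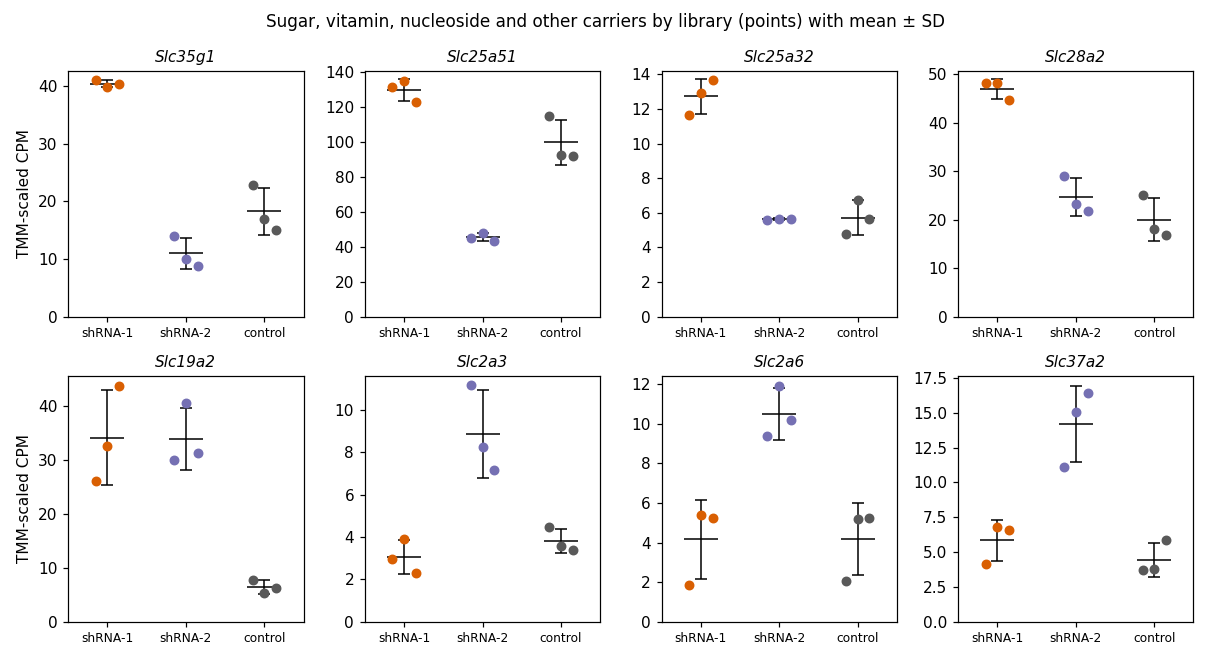
Points give the TMM-scaled CPM of each library for 8 further carriers, with shRNA-1 on the left, shRNA-2 in the middle and the controls on the right, and bars give the mean and SD of 3 libraries. Slc35g1 and Slc25a51 lie above the controls with shRNA-1 and below them with shRNA-2, Slc25a32 and Slc28a2 are high with shRNA-1, Slc19a2 with both hairpins, and Slc2a3, Slc2a6 and Slc37a2 with shRNA-2.

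Carriers of inorganic ions and pH numbered 20, of which 5 were higher and 3 lower with shRNA-1 and 6 higher and 4 lower with shRNA-2. Their called shares of 40% and 50% are near the 34.7% and 48.7% of all tested genes. Slc24a3, a potassium-dependent sodium and calcium exchanger, had the largest difference between the hairpins of the 187 genes. It reached 1 CPM in 3 libraries with shRNA-2, 1 control library and 0 libraries with shRNA-1. It thus passed the threshold only through the shRNA-2 group, so its being high there was partly fixed by the choice of genes. It had 0.329, 0.307 and 0.738 CPM with shRNA-1, 6.26, 10.9 and 10.7 CPM with shRNA-2 and 0.862, 0.729 and 1.02 CPM in the controls, so it was near or below 1 CPM outside the shRNA-2 group. This gave log2 fold changes of -0.94 ± 0.45 (adjusted p = 0.126) with shRNA-1 and 3.39 ± 0.31 (adjusted p = 7.76e-06) with shRNA-2. The difference between hairpins was -4.32 ± 0.37 (adjusted p = 6.93e-06). The mitochondrial sodium and calcium exchanger Slc8b1 was higher with shRNA-1 (0.78 ± 0.26 (adjusted p = 0.0396)) and not called with shRNA-2 (0.41 ± 0.26 (adjusted p = 0.215)). That call was lost without TMM factors, with the ribosomal covariate and without any 1 of shRNA-1 replicates 1 or 2 or control replicates 1, 2 or 3 (adjusted p up to 0.149).

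For acid and base, the bicarbonate importer Slc4a7 had 31.7, 32.8 and 29.2 CPM with shRNA-1, 26.8, 21.2 and 24.2 CPM with shRNA-2 and 50.04, 46.9 and 41 CPM in the controls. It was lower with both hairpins, without overlap, at -0.56 ± 0.13 (adjusted p = 0.00681) with shRNA-1 and -0.93 ± 0.13 (adjusted p = 0.000137) with shRNA-2. The endosomal proton exchanger Slc9a9 was higher with both (1.17 ± 0.35 (adjusted p = 0.0238) with shRNA-1 and 2.47 ± 0.32 (adjusted p = 8.75e-05) with shRNA-2) from a low control level of 1.01, 0.862 and 0.84 CPM. With the ribosomal covariate the shRNA-1 calls of Slc4a7 (adjusted p = 0.144) and Slc9a9 (adjusted p = 0.519) were lost. That of Slc9a9 was also lost without any 1 of shRNA-1 replicates 2 or 3 or control replicates 2 or 3 (adjusted p up to 0.0819). The scaffold gene Slc9a3r1, which anchors proton exchangers and is not a carrier, was higher with shRNA-2 (1.31 ± 0.13 (adjusted p = 1.11e-05)) and not called with shRNA-1 (-0.10 ± 0.13 (adjusted p = 0.584)).

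Slc12a4, the potassium and chloride cotransporter KCC1, had 2.75, 3.15 and 3.32 CPM with shRNA-1, 7.61, 6.34 and 7.49 CPM with shRNA-2 and 5.32, 6.96 and 6.41 CPM in the controls. It was lower with shRNA-1 (-1.01 ± 0.20 (adjusted p = 0.00275)) and overlapped the controls with shRNA-2 (0.20 ± 0.18 (adjusted p = 0.381)). The hairpins differed by -1.21 ± 0.20 (adjusted p = 0.000562). Its call with shRNA-1 was lost with the ribosomal covariate (adjusted p = 0.0703). Its relative Slc12a9 was higher with both hairpins (0.82 ± 0.14 (adjusted p = 0.00139) with shRNA-1 and 1.18 ± 0.14 (adjusted p = 4.69e-05) with shRNA-2). The phosphate importer Slc20a1 had 137, 122 and 94.3 CPM with shRNA-1, 142, 90.4 and 93 CPM with shRNA-2 and 78.5, 57.7 and 65.3 CPM in the controls. It was higher with both hairpins (0.81 ± 0.20 (adjusted p = 0.00924) with shRNA-1 and 0.69 ± 0.20 (adjusted p = 0.0127) with shRNA-2). Both calls were lost without TMM factors, and the shRNA-2 call without control replicate 2 (adjusted p = 0.0585). The sulphate carrier Slc26a2 was lower with both, at -0.71 ± 0.13 (adjusted p = 0.00181) with shRNA-1 and -0.60 ± 0.13 (adjusted p = 0.00207) with shRNA-2. Its shRNA-1 call was lost with the ribosomal covariate (adjusted p = 0.091).

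As background to the ion carriers, 18 tested genes of the V-ATPase, the pump that acidifies organelles, had 7 higher and 3 lower with shRNA-1 and 8 higher and 3 lower with shRNA-2. The 4 tested genes of the sodium and potassium ATPase, which sets the gradient that many carriers use, had 0 called with shRNA-1 and 3 higher with shRNA-2. Among them, Atp1b1 was higher with shRNA-2 (0.89 ± 0.18 (adjusted p = 0.00141)). Of 31 tested ABC transporter genes, which pump their cargo with ATP, 5 were higher and 6 lower with shRNA-1, and 8 higher and 9 lower with shRNA-2. Their called shares of 35.5% and 54.8% are near the 34.7% and 48.7% of all tested genes, beside 55.6% and 61.1% for the V-ATPase genes.

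The class of fatty acid, organic ion and vesicular carriers held 11 genes, with 2 higher and 1 lower with shRNA-1 and 4 higher and 2 lower with shRNA-2. Called were thus 27.3% and 54.5% of them, beside 34.7% and 48.7% of all tested genes. Slc33a1, which carries acetyl-CoA into the endoplasmic reticulum, had 51.4, 45.4 and 47.2 CPM with shRNA-1, 56.6, 41.5 and 36.4 CPM with shRNA-2 and 32.2, 24 and 23.5 CPM in the controls. It was higher without overlap, by 0.85 ± 0.18 (adjusted p = 0.00385) with shRNA-1 and 0.76 ± 0.18 (adjusted p = 0.00404) with shRNA-2. Slc22a3, an organic cation carrier, had 1.32, 1.69 and 0.461 CPM with shRNA-1, 2.02, 1.08 and 0.54 CPM with shRNA-2 and 3.9, 4.64 and 4.69 CPM in the controls. It was lower without overlap, at -1.91 ± 0.44 (adjusted p = 0.00656) with shRNA-1 and -1.83 ± 0.42 (adjusted p = 0.00355) with shRNA-2. The shRNA-1 call was lost under the ribosomal covariate (adjusted p = 0.216). Slc27a4, an acyl-CoA synthetase that takes up long-chain fatty acids, was higher with shRNA-2 (0.61 ± 0.13 (adjusted p = 0.00236)) and not called with shRNA-1 (0.07 ± 0.13 (adjusted p = 0.703)).

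Opposite calls with the hairpins were made for 4 carriers, 2.14% of the 187 beside 2.66% of all tested genes, namely Slc35g1, Slc25a51, Slc39a9 and Slc7a6. Slc35g1, a membrane protein known as a partner of the calcium sensor STIM1, lies at chr19:38395980-38405610. It had 41.1, 39.9 and 40.3 CPM with shRNA-1, 14, 10.1 and 8.84 CPM with shRNA-2 and 22.9, 17 and 15.1 CPM in the controls. The 3 groups did not overlap. Its log2 fold changes were 1.14 ± 0.19 (adjusted p = 0.00106) with shRNA-1 and -0.74 ± 0.19 (adjusted p = 0.00771) with shRNA-2. Slc39a9, a ZIP carrier of the Golgi, had 70.3, 69.7 and 62.7 CPM with shRNA-1, 30.2, 31.8 and 28 CPM with shRNA-2 and 55.2, 52 and 44.9 CPM in the controls. These groups did not overlap either, with log2 fold changes of 0.41 ± 0.12 (adjusted p = 0.0198) with shRNA-1 and -0.76 ± 0.12 (adjusted p = 0.00036) with shRNA-2.

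Slc7a6, a light chain for exchange of cationic and neutral amino acids, had 23.8, 26.7 and 27.1 CPM with shRNA-1, 13.5, 16.6 and 15.9 CPM with shRNA-2 and 17.6, 19.2 and 22.2 CPM in the controls. Its groups lay close together, with log2 fold changes of 0.40 ± 0.14 (adjusted p = 0.0411) with shRNA-1 and -0.36 ± 0.14 (adjusted p = 0.0472) with shRNA-2. Both of its calls were close to the threshold and were lost in DESeq2, without the low-count filter and with the ribosomal covariate (adjusted p = 0.293 for shRNA-1 and 0.0694 for shRNA-2). Its call with shRNA-1 was also lost without shRNA-1 replicates 1, 2 or 3, shRNA-2 replicate 3 or control replicates 1 or 2 (adjusted p up to 0.128). The shRNA-2 call was also lost without shRNA-1 replicates 1, 2 or 3, shRNA-2 replicates 1 or 3 or control replicates 2 or 3 (adjusted p up to 0.208). The shRNA-1 calls of Slc25a51 (adjusted p = 0.249) and Slc39a9 (adjusted p = 0.225) were lost with the ribosomal covariate, without TMM factors and without the low-count filter. The call of Slc25a51 was also lost without shRNA-1 replicates 1, 2 or 3 or control replicates 2 or 3 (adjusted p up to 0.122). That of Slc39a9 was lost without shRNA-1 replicates 1 or 2 or control replicates 2 or 3 (adjusted p up to 0.0872). Slc39a9 overlaps Erh on the opposite strand, which was lower with shRNA-2 (-0.67 ± 0.23 (adjusted p = 0.0326)). Of all 187 carriers, 57 share at least 50 exon bases with another annotated gene, 8 on the same strand and 50 on the opposite strand. Whether counting used the strand is not stated in the labels, so such reads cannot be told apart.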

How the data were processed

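RNA of 9 cultures was measured by RNA-seq from an oligo-dT primer and random decamers, per the labels' protocols. The authors deposited raw counts for each gene symbol, with a table for every library and no normalization. STAR 2.3.0e, HTSeq 0.6.0 and the mouse build mm10 are named per the submitters' processing notes. No annotation release or strand setting is given in the sources used here. Entries with the same symbol were summed (429 entries for 176 symbols, 0.275% of the counts). Genes kept by filterByExpr (12663) entered 1 edgeR 4.0.16 quasi-likelihood fit in R 4.3.3 with TMM factors and the group as the sole term, with Benjamini-Hochberg adjusted p under 0.05 as the call. The SE is the log2 fold change divided by the square root of its F statistic. Levels are TMM-scaled CPM. Positions are from GENCODE M21 on GRCm38 (mm10). Library totals were 9559638 to 19483923 counts. Counting error weighs more in genes with few counts, and its size beside the spread between cultures was not tested.

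The carriers, their substrate classes and the lists of other genes were chosen with earlier results of these data known. Genes were named by rule: per comparison and direction the 6 largest called changes at a mean of at least 5 CPM without overlap, the 8 per direction shared by both hairpins, every opposite call, the 2 most abundant per class, 26 by name and the 3 nearest the threshold on each side. Of the 26, Slc12a2 did not reach the threshold. Some genes that the rule names are not reported here. The following members were chosen after their values were seen: Slc24a3, Slc5a3, Slc6a9, Slc9a9, Slc30a7, Slc36a1, Slc29a3, Slc25a12, Slc25a24, Slc38a7, Slc35a2, Slc35a5, Slc35b3, Slc25a22, Slc12a9, Slc25a4, Slc13a3, Slc22a3, Slc7a3, Slc13a5, Slc25a23, Slc8b1, Slc25a33, Slc25a46, Slc30a5, Slc30a6, Slc25a13, Slc35f5, Slc35a4, Slc41a3, Slc35f6, Slc31a1, Slc41a2, Slc37a3, Slc39a14 and Slc25a28. Slc4a1ap was moved from the ion carriers to the class of genes that are not carriers, with Slc7a6os, Slc9a3r1 and Slc9a3r2, after values were seen. Alternatives were DESeq2 size factors, total counts without TMM, no filter, DESeq2 1.42.0, a replicate block, the ribosomal RNA share as a covariate, and leaving out each library.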

Additional observations from a re-analysis of the deposited data

Results flagged for a closer look

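The carriers with opposite calls are listed here because the effects of the hairpins against the same controls differed, with the difference tested in edgeR's quasi-likelihood fit and adjusted over 12663 genes. They were picked by their opposite calls in these same data. The difference and the separation of libraries given below follow from that choice and are no separate evidence. Opposite calls made up 2.14% of the carriers beside 2.66% of all tested genes. The shRNA-1 minus shRNA-2 difference in log2 level was 1.88 for Slc35g1 (adjusted p = 2.47e-05), 1.51 for Slc25a51 (adjusted p = 5.45e-06), 1.17 for Slc39a9 (adjusted p = 2.64e-05) and 0.76 for Slc7a6 (adjusted p = 0.00118). For these 4 genes no shRNA-1 library was below any control, and no shRNA-2 library was above any.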

How the results depend on the processing

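Of the 12663 genes tested, the carriers called with shRNA-1, with shRNA-2, with both in 1 direction and between hairpins numbered 67, 104, 43 and 73. With a covariate for the ribosomal RNA share 25 were called with shRNA-1 and 19 with both. In that setting the shRNA-1 calls by class were 2 for amino acids and peptides, 1 for fatty acids, organic ions and vesicular cargo, 3 for inorganic ions and pH, 6 for metals and heme, 6 for mitochondrial carriers, 0 for monocarboxylates, dicarboxylates and bile acids, 0 for genes that are not carriers, 4 for nucleotide sugars and other SLC35, and 0 for sugars and sugar phosphates. The mean share was higher in both knockdown groups than in the controls, so the covariate and the group cannot be fully told apart. Every shRNA-1 library lay above every control, whereas shRNA-2 replicate 1, at 6.10%, lay below control replicates 1 and 2 (7.86% and 8.29%). With total counts and no TMM factors, metals and heme had 6 shRNA-1 calls, and SLC35 had 7 with each hairpin.

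Leaving out 1 library gave 47 to 84 calls with shRNA-1, 86 to 103 with shRNA-2, 29 to 48 with both and 54 to 84 between hairpins. By class the shRNA-1 calls ranged over 5 to 9 for inorganic ions and pH, 7 to 13 for metals and heme, 0 to 4 for monocarboxylates, dicarboxylates and bile acids, 1 to 3 for genes that are not carriers, 5 to 13 for SLC35 and 0 to 3 for sugars. The shRNA-2 calls of vitamins, nucleosides, nucleobases and choline ranged over 5 to 11, the lowest without shRNA-2 replicate 3. The cause of these differences was not tested.

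DESeq2 called 70, 105, 45 and 76 in the order above. The replicate block called 75, 112, 49 and 79. To look for shared effects, the deviations of log CPM from the mean of each group were correlated between libraries of different groups. These deviations correlated at -0.129 to 0.336 in same-numbered pairs of libraries. Of these pairs 6 of 9 were over 0.1, against 2 of 18 differently numbered pairs, and 7 of 9 libraries had their highest mean correlation with their own number. That is a hint of shared effects from the data. The labels name no shared batch and not every pair was over 0.1, so the block was kept as an alternative. Among the named carriers it added shRNA-1 calls for Slc15a3, Slc16a3, Slc27a3, Slc2a1 and Slc30a5, and shRNA-2 calls for Slc16a6, Slc25a39, Slc25a5, Slc43a3 and Slc44a2. Of the named carriers not called, 16 of 56 with shRNA-1 and 13 of 32 with shRNA-2 were called in at least 1 alternative. No named carrier changed direction while called in any alternative run here. Low carriers near 1 CPM have few counts, and changes of that size there may not be detectable.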
